A study of Mus musculus with 11 samples.

Results

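The 7 transcription factor genes Fev, Gata2, Gata3, Nkx2-2, Nkx6-1, Nkx6-2 and Insm1 act in the specification and differentiation of serotonergic (5-HT) neurons, and open chromatin around them was compared between dopaminergic (DA) and 5-HT neurons. The genes were taken by name, 7 of the 22380 protein-coding genes of the annotation. Every deposited region that touched a gene body or the 50 kb on either side of it was kept, which gave 93 of 131942 regions. Of these, 13 lay at a promoter of the gene itself (1 kb upstream to 100 bp downstream of any annotated transcription start site, TSS), 12 at a promoter of a neighbouring gene and 68 outside all annotated promoters, called distal here. No region was counted for more than 1 gene.

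ATAC-seq, in which a transposase cuts accessible DNA, was performed on sorted neurons of E14.5 mouse embryos, with 3 DA and 2 5-HT libraries from separate sorting experiments. DA neurons were GFP-positive cells of the ventral mesencephalon of TH-GFP embryos, which carry GFP under a Th promoter in a line kept on C57BL/6J. 5-HT neurons were YFP-positive cells of rhombomeres r1 to r3 of Mash1-CRE × ROSA YFP embryos. In both cases transgenic males were crossed with Swiss wild-type females, and tissue of several embryos was pooled for each sort. The Cre of the 5-HT line is not restricted to the 5-HT lineage, so YFP marks the descendants of all cells that expressed it and not 5-HT neurons alone. The GFP of the DA line reports the transgene and not the Th protein. By immunofluorescence after sorting, the paper found Tph2-positive cells enriched in the YFP-positive population and Th-positive cells in the GFP-positive population.

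For each region and library the authors deposited a score, and a score of 0 means that the library had no peak there. Neither the unit of these scores nor the depth of the libraries is known, so scores were ranked within each library, rank 1 being the highest. DA replicates 1, 2 and 3 held 52861, 93055 and 94351 peaks. 5-HT replicate 1 held 38772 peaks and 5-HT replicate 2 held 22879. Both 5-HT libraries were smaller than every DA library, and absence of a peak in them does not compare with absence in a larger one. For this reason a region was also called higher in 5-HT (or DA) only when every library of that group ranked it among its first 22879 peaks and above all libraries of the other group. All values below are given in the order DA replicates 1, 2 and 3, then 5-HT replicates 1 and 2.

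The labels were first set against the promoters of defining genes. The promoter of Th, the rate-limiting enzyme of dopamine synthesis, scored 9.91, 10.64 and 8.45 in the DA libraries and 0 in both 5-HT libraries. The promoter of Tph2, the rate-limiting enzyme of neuronal serotonin synthesis, had a peak in all 5 libraries, with scores of 9.91, 7.59, 11.11, 7.09 and 3.59. The promoter of Slc6a4, the serotonin transporter, scored 4.80, 6.56 and 3.76 in the DA libraries and 0 in both 5-HT libraries. Of 10 serotonergic marker genes, 7, 8 and 7 had a promoter peak in the DA libraries and 5 and 4 in the 5-HT libraries, with summed scores of 40.7, 45.8, 39.4, 24.7 and 17.2. For this and the other marker lists, no share over all genes is given for the counts per library. Since the libraries differ in size and the unit of the scores is unknown, these counts and sums are not compared between libraries. Th, at ranks 5027, 7767 and 10108 in DA, thus went with the labels, and Tph2 had a peak in both groups. Slc6a4 and the monoamine oxidase gene Maob (3.72, 3.31 and 3.86 in DA, 0 in 5-HT) lay past rank 22879 in all 3 DA libraries, where absence in the smaller 5-HT libraries does not compare. The highest scoring marker of the list was Tph2 in 5-HT replicate 1 and Gata3 in 5-HT replicate 2, whereas Slc6a4, Maob and Slc22a3 were at 0 in both, Slc22a3 without a promoter region in any library. Slc18a2 and Htr1a were also at 0 in 5-HT replicate 1, and Fev, Gata2 and Lmx1b in 5-HT replicate 2. Of 8 dopaminergic marker genes, all 8 had a promoter peak in each DA library and 4 in each 5-HT library, with summed scores of 56.6, 59.8, 52.6, 16.7 and 12.8. Here too, Lmx1a and Aldh1a1, at 0 in both 5-HT libraries, lay past rank 22879 in all 3 DA libraries. By rank, 2 of the 8 (Th and Pitx3) were higher in DA and none in 5-HT. Of the 10 serotonergic markers, 1 (Gata3) was higher in 5-HT and none in DA. The best promoter regions of 14499 protein-coding genes gave 11.5% higher in DA and 14.3% in 5-HT. In bulk libraries, fewer cells with an open region and a less open region per cell cannot be told apart.

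5-HT neurons arise in the ventral hindbrain from progenitors patterned by Sonic hedgehog, in which Nkx2-2 and the Nkx6 factors set the ventral identity. Insm1 then acts in neurogenesis, and Gata2, Gata3 and Fev act in the newborn and postmitotic neuron, where Fev switches on the genes of serotonin synthesis, transport and reuptake. Several of these factors are not restricted to 5-HT neurons, since Gata2 and Gata3 also direct GABAergic fates, and Nkx2-2 and the Nkx6 factors pattern motor neurons, interneurons and oligodendrocyte precursors.

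Promoters of the serotonergic factors were unevenly open. Peaks shared by all 5 libraries were found at Gata3, Nkx6-1 and Insm1, while Fev, Gata2 and Nkx6-2 had promoter peaks of low score in 1 or both of DA replicate 2 and 5-HT replicate 1. In all, 3 of the 13 promoter regions had a peak in all 5 libraries (58.8% of the 17884 regions at any annotated promoter), none in the DA libraries only (5.51%) and none in the 5-HT libraries only (0.101%). By rank, 3 of 13 were higher in 5-HT (12.5% of all promoter regions) and none was higher in DA (9.08%). The 3 regions were 2 at Gata3 and 1 at Insm1. At an equal number of peaks, the count open in all libraries was 0 (44.2% of all promoter regions) and the count open in 5-HT only was 1 (3.55%). With promoter regions placed by their centre, 1 was open in all libraries, and no share over all promoter regions is given for that definition. With ranks limited to 10000, no promoter region of these genes was higher in 5-HT (4.88% of all promoter regions). Without 5-HT replicate 2, 6 were higher in 5-HT with the limit kept at rank 22879 (23.3% of all promoter regions). With the limit raised to 38772, the number of peaks of the smallest library that was kept, 11 were (32.4%). The count open in 5-HT only was 2 without 5-HT replicate 2 (1.2%) and 1 without DA replicate 3 (0.145%), and the count open in DA only was 1 without 5-HT replicate 1 (18.4%).

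The number of promoter regions with a peak was 4, 10 and 5 in the DA libraries and 12 and 4 in the 5-HT libraries. The number was highest in 5-HT replicate 1, although its library was smaller than all DA libraries, and 5-HT replicate 2 had 4. No share over all promoter regions is given for these counts, so they are not read as a result about the 7 genes. Within the first 22879 peaks of each library the numbers were 2, 1 and 1 in DA and 7 and 4 in 5-HT, and the groups did not overlap. Of all 17884 promoter regions, 55.5%, 55.7% and 53.6% were within this limit in DA and 61.0% and 61.6% in 5-HT, so at an equal number of peaks promoter regions in general were also more often within it in 5-HT. For the 13 regions the shares were 15.4%, 7.69% and 7.69% in DA and 53.8% and 30.8% in 5-HT, below those of all promoter regions in every library.

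**Figure D1:**
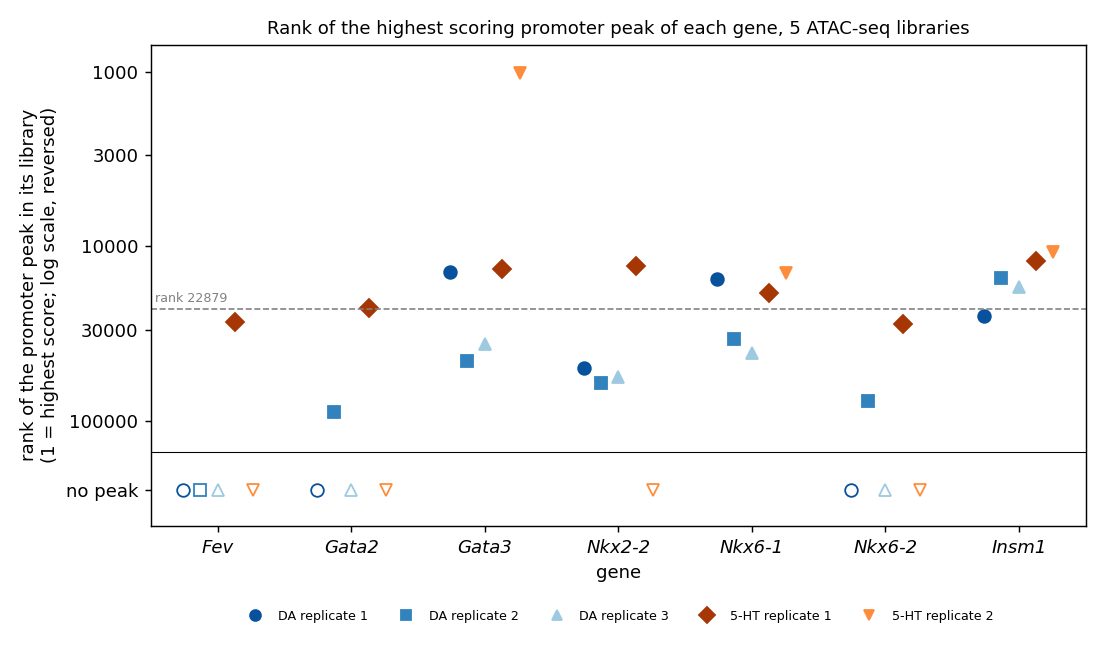
Rank of the promoter region with the highest mean score of each gene (y axis, log scale, reversed so that high scores are at the top) in the 3 DA libraries (blue) and the 2 5-HT libraries (brown and orange). Open symbols in the lower strip mark libraries without a peak, and the dashed line marks rank 22879; the point nearest the top is Gata3 in 5-HT replicate 2 at rank 1021.

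Among the progenitor factors, Nkx2-2, a homeodomain protein induced by Sonic hedgehog in the most ventral neural progenitors, had its main promoter region at chr2:147018825-147021191 (mm9, minus strand gene). Its scores were 3.51, 3.80, 3.67, 5.21 and 0, which placed it at ranks 49503, 60827 and 56061 in DA and 13026 in 5-HT replicate 1. 5-HT replicate 1 ranked this promoter well above the 3 DA libraries, and 5-HT replicate 2 had no peak. Since all DA ranks lay past the 22879 peaks of 5-HT replicate 2, that library tied with DA in the capped ranks. The difference in mean rank, with ranks past 22879 set to 22880, was -4927.0 (5-HT minus DA, two-sided exact permutation p = 0.4). Leaving out 5-HT replicate 1 gave 0.0, and leaving out 5-HT replicate 2, with the limit kept, gave -9854.0. With 3 against 2 libraries this test cannot give a p below 0.1, and this holds for every gene here. Regions at the promoters of internal TSSs, chr2:147011752-147012122 and chr2:147012825-147013388, had a peak in DA replicate 2 (3.40 and 3.32) and 5-HT replicate 1 (3.37 and 3.76) and in no other library.

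Nkx6-1, a homeodomain repressor needed for ventral neuron and motor neuron fates, had a single promoter region, chr5:102092334-102094792, which spans its TSS. It was open in all libraries with scores of 6.69, 5.33, 4.34, 4.57 and 3.41, at ranks 15450, 34172.5, 40694, 18505 and 14299. DA replicate 1 ranked it between the 5-HT libraries, and the groups overlapped (difference -4001.3, exact permutation p = 0.3). The difference was -1898.3 without 5-HT replicate 2 at the same limit, -6104.3 without 5-HT replicate 1 and -6478.0 without DA replicate 1. Its paralogue Nkx6-2, which shares ventral patterning roles and acts in oligodendrocytes, had a promoter region at chr7:146768123-146768843 with scores of 0, 3.35, 0, 3.84 and 0. Here only the second DA and the first 5-HT library had a peak, both past rank 22879, so that the capped ranks did not differ (difference 0.0, exact permutation p = 1.0).

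Insm1, a zinc finger factor of newborn neurons and endocrine cells that promotes terminal differentiation, had the widest promoter region of the 7 genes, chr2:146046367-146049539, which spans its TSS. The scores were 5.27, 8.18, 6.85, 5.35 and 3.77, at ranks 25080, 15134, 17122, 12148 and 10720.5. All 5 libraries were open, and both 5-HT libraries ranked the promoter above all 3 DA libraries, although by score DA replicates 2 and 3 were the highest (difference in mean rank -6944.4, exact permutation p = 0.2). Order by score and order by rank thus differed for Insm1.

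Gata2, a zinc finger factor of early postmitotic precursors, has TSSs at 88143885 and 88148658 on chromosome 6. No region touched the promoter at the upstream TSS, and the region at the internal TSS, chr6:88148247-88149063, scored 0, 3.11, 0, 4.20 and 0. A region in an intron, chr6:88143987-88144551, centred 384 bp downstream of the upstream TSS, had scores of 0, 3.14, 0, 3.37 and 0. Gata2 promoters were therefore open in DA replicate 2 and 5-HT replicate 1 alone, at low scores (difference in mean rank -131.0, exact permutation p = 0.4). The difference was 0.0 when 5-HT replicate 1 was left out, and -262.0 when 5-HT replicate 2 was, with the limit kept.

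Gata3, which acts beside Gata2 in hindbrain 5-HT neurons, had 6 annotated TSSs and 4 promoter regions. The strongest, chr2:9799718-9801567, surrounds an internal TSS and scored 6.98, 4.52, 4.65, 5.13 and 7.51, at ranks 13970, 45105, 36123, 13534 and 1021. In 5-HT replicate 2 this was the highest ranked of all 93 regions, and both 5-HT libraries ranked it above the DA libraries, DA replicate 1 falling only just behind 5-HT replicate 1 (difference -12632.5, exact permutation p = 0.2). Without 5-HT replicate 2 at the same limit the difference was -6376.0. A further region at an internal TSS, chr2:9809303-9809718, scored 0, 0, 3.56, 5.17 and 3.24 and was likewise higher in 5-HT, at ranks 13264 and 16406 against 59557.5 in DA replicate 3. The region that reaches the most upstream TSS, chr2:9810683-9811661, had a peak in DA replicate 2 (3.54) and 5-HT replicate 1 (4.74), and chr2:9812346-9812574 in DA replicate 2 alone (3.11).

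Markers of GABAergic neurons, a fate that also uses Gata2 and Gata3, were set beside this result. Of 9 such genes, Gata2 and Gata3 included, 5 were higher in 5-HT by rank (Gad1, Gad2, Tal1, Lhx1 and Gata3 itself) and none in DA, where the best promoter regions of 14499 protein-coding genes gave 14.3% and 11.5%. A promoter peak was found for 6, 8, 6, 7 and 5 of the 9, with summed scores of 29.9, 32.1, 26.2, 34.3 and 20.8, and the highest scoring gene was Gata3, Slc32a1, Gad2, Lhx1 and Gata3 in turn. Slc32a1, the vesicular transporter of GABA, and Sox14 were at 0 in both 5-HT libraries. Every DA peak at these genes lay past the rank limit, where absence in the smaller 5-HT libraries does not compare. The part of GABAergic cells in the Gata3 result was not tested.

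Fev, an ETS domain factor and among these genes the one most restricted to 5-HT neurons in the brain, had promoter peaks in a single library. The region over the most downstream of its 3 TSSs, chr1:74931114-74931342, had a peak in 5-HT replicate 1 alone with a score of 3.37, the lowest that library holds and shared by 3629 of its peaks. A region 446 bp upstream of the most upstream TSS, chr1:74932372-74932507, scored 3.88 in 5-HT replicate 1, at rank 27093.5, and 0 in the other 4 libraries. No DA library had a peak at either, but neither had 5-HT replicate 2, and with both regions past rank 22879 the difference in capped rank was 0.0 (exact permutation p = 1.0). It was -9227.0 with scores summed over both regions, and -11679.5 when 5-HT replicate 2 was left out and the limit raised to 38772, but 0.0 when the limit was kept.

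Within the 5-HT libraries, promoters of the 7 genes fell in the order Gata3, Insm1, Nkx6-1, Nkx2-2 and Gata2 by mean capped rank (7277.5, 11434.2, 16402.0, 17953.0 and 22749.0), with Fev and Nkx6-2 at the limit. Gata3 and Insm1 overlapped, since 5-HT replicate 1 placed Insm1 first and 5-HT replicate 2 Gata3. Both 5-HT libraries ranked Insm1 above Nkx6-1, while Nkx2-2, without a peak in 1 of the 2 libraries, overlapped Gata3, Nkx6-1 and Gata2, as 5-HT replicate 1 ranked it above Gata3. In the DA libraries the order was Insm1, Gata3 and Nkx6-1 (18378.7, 19910.0 and 20403.3), with overlapping libraries, and the other 4 genes were past rank 22879 in all 3.

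Outside promoters, regions around the serotonergic factors were mostly found in few libraries. Of the 68 distal regions, 5 had a peak in all 5 libraries (5.55% of the 114058 regions outside annotated promoters), 5 in the DA libraries only (14.6%) and 2 in the 5-HT libraries only (0.434%). By rank, 3 were higher in 5-HT (2.5%) and 3 in DA (3.35%). At an equal number of peaks, 2 were open in all libraries (2.72% of all regions outside promoters) and 2 in DA only (2.33%), while 3 were open in 5-HT only (1.51%). The calls of all regions also moved when a library was left out. Without 5-HT replicate 2, 10 regions were open in all libraries (12.2%) and 13 in 5-HT only (4.28%). By rank 10 were then higher in 5-HT (7.09%) and 3 in DA (4.02%) with the limit kept at 22879, and 25 (15.5%) and 6 (8.72%) with the limit raised to 38772. Without 5-HT replicate 1, 10 were DA only (21.2%) and 7 were higher in 5-HT (7.55%), and without DA replicate 1, 9 were DA only (27.4%). Over all 93 regions, 42 had a peak in exactly 1 library (45.2%, against 44.5% of all regions), of which 21 were found in DA replicate 2, 13 in 5-HT replicate 1, 7 in DA replicate 3, 1 in 5-HT replicate 2 and 0 in DA replicate 1. Of these 42 regions, 31.0% were thus from 5-HT replicate 1 and 16.7% from DA replicate 3, against 7.8% and 45.7% of the 58671 such regions in all. DA replicate 2 held 21 of the 42, against 39.1% in all, 5-HT replicate 2 held 2.38% against 2.78%, and DA replicate 1 none against 4.65%.

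At Nkx2-2, chr2:147006355-147007266 in an intron had no peak in DA and scored 4.24 and 2.97 in the 5-HT libraries, at ranks 22065 and 20781. This region was both 5-HT only and higher in 5-HT, near the limit of rank 22879 in both libraries. In an intron nearer the 3′ end, chr2:147003378-147004810 was open throughout (8.41, 5.86, 7.53, 5.36 and 4.20) and was the highest ranked distal region of Nkx2-2 in 5-HT. The highest in DA, the intergenic chr2:146974463-146975022, 37255 bp past the nearest TSS, scored 6.73, 8.76 and 7.85 in DA and 0 in both 5-HT libraries. Distal regions of the same gene were thus split between DA, 5-HT and both.

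Nkx2-2 and Olig2 also mark ventral progenitors and oligodendrocyte precursors. Sim1 and Nkx2-9, which mark V3 interneurons and p3 progenitors, were counted together with Olig2. A promoter peak was found for 2, 3, 3, 3 and 3 of these genes, with summed scores of 12.6, 18.2, 17.2, 13.3 and 10.8. Sim1 scored highest in DA and Olig2 in 5-HT. The Olig2 promoter, at 0, 4.36, 4.42, 4.73 and 4.27, was higher in 5-HT by rank, while those of Sim1 and Nkx2-9 were called in neither direction. Of 5 oligodendrocyte precursor markers, 2, 3, 3, 3 and 3 had a promoter peak, with summed scores of 13.1, 16.6, 17.4, 14.1 and 11.6, and the highest scoring gene was Olig1 in DA, Pdgfra in 5-HT replicate 1 and Olig2 in 5-HT replicate 2. Sox10 and Cspg4, which mark the oligodendrocyte lineage, had no promoter region in any library. The part of these cells in the Nkx2-2 result was not tested.

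Around Nkx6-2, 3 of the 4 distal regions lay in introns of the neighbouring gene Inpp5a. The region chr7:146716460-146717028 scored 4.02 and 3.24 in the 5-HT libraries and 0 in DA, at ranks 25069 and 16500.5, and was not called by rank because 5-HT replicate 1 placed it past 22879. The region chr7:146730662-146731678 was open in all libraries with scores of 4.69, 5.08, 3.96, 4.72 and 3.01 and higher in 5-HT by rank (30921, 37027, 48371, 17005 and 20151). In contrast chr7:146748593-146749642 had peaks in DA only (5.28, 4.68 and 3.91). The 3 regions in Inpp5a introns thus differed in pattern, and no distal region of Nkx6-2 came within the first 22879 peaks of a DA library.

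Nkx6-1 had no distal region called by rank. Its highest ranked distal region in both groups was chr5:102117624-102118004, 23569 bp upstream, with scores of 4.71, 6.77, 7.10, 4.67 and 0. The only distal region of Nkx6-1 with a peak in every library of 1 group and none of the other, chr5:102076808-102077649, scored 3.45, 3.54 and 3.20 in DA, where the lowest scores of the libraries were 3.45, 3.04 and 3.03.

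At Insm1, a region of 300 bp at chr2:146042966-146043265, 4542 bp upstream, was open in all 5 libraries with scores of 3.59, 3.75, 3.12, 4.46 and 3.56. Its ranks were 47963.5, 62331 and 82135.5 in DA and 19593 and 12739 in 5-HT, with a wide gap between the groups. The highest ranked distal region of Insm1 in DA, chr2:146040455-146040825, lay in an exon of 4930529M08Rik and scored 5.97, 6.82, 7.25, 5.71 and 0. A DA-only region, chr2:146082857-146083108, scored 5.12, 5.43 and 7.01 in an intron of Ralgapa2.

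Distal regions of Gata2 and Gata3 did not include any 5-HT-only or DA-only region. For Gata2, the intergenic chr6:88139331-88140101, 4169 bp upstream, scored 5.90, 8.68, 8.11, 7.45 and 3.31 and was the highest ranked distal region in both groups. In 5-HT replicate 1 it held rank 3986, the best of all 93 regions there, while 5-HT replicate 2 placed it at 15567, between the DA libraries. Gata3 had 17 distal regions, none in all 5 libraries and none within the first 22879 peaks of a DA library. The best in 5-HT, chr2:9819459-9819711, scored 0, 3.64, 5.37, 0 and 3.75.

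Around Fev, 2 distal regions were higher in DA and none in 5-HT. In an intron of Gm16582, chr1:74904694-74905511 scored 10.43, 11.42, 9.64, 5.42 and 3.41 and held ranks 4199, 6261 and 7014 in DA, the best of all 93 regions in each DA library, against 11698 and 14293.5 in 5-HT. Close to the 3′ end of Fev, the intergenic chr1:74927438-74927794 scored 7.93, 7.71 and 6.43 in DA and 0 in both 5-HT libraries. These were 2 of the 3 distal regions higher in DA, the other lying near Nkx2-2. At promoters of its neighbours, the Cdk5r2 region chr1:74900787-74902596 was open in all libraries (9.70, 8.55, 6.48, 5.94 and 4.25) and the Cryba2 region chr1:74939285-74940286 in DA only (3.45, 4.18 and 4.08).

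Counted over the windows of all 7 genes, DA replicates 1, 2 and 3 had 26, 68 and 46 peaks, a mean of 46.7 ± 21.0 (SD, n = 3). 5-HT replicate 1 had 48 peaks and 5-HT replicate 2 had 18, a mean of 33.0 ± 21.2 (SD, n = 2). The groups overlapped, and the order followed neither the group nor the library size alone. Among the first 22879 peaks of each library the counts were 11, 11 and 12 in DA (11.3 ± 0.577) and 22 and 18 in 5-HT (20.0 ± 2.83), and the groups did not overlap. The mean per gene was thus 1.57, 1.57 and 1.71 in DA and 3.14 and 2.57 in 5-HT, against 2.49, 2.61, 2.41, 2.47 and 2.48 over the 22380 windows of protein-coding genes. No test was made of this sum over chosen genes.

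The counts were uneven among the genes. At equal numbers, Gata3 had 1, 0 and 0 peaks in DA and 5 and 4 in 5-HT. It was the only 1 of the 7 windows in which both 5-HT libraries exceeded all DA libraries (6.71% of all windows). Fev, with 3, 4, 3, 2 and 2 peaks, was the only window in which all DA libraries exceeded both 5-HT libraries (8.01%). Nkx2-2 (2, 1, 2, 4 and 2), Insm1 (2, 2, 4, 5 and 4) and Gata2 (1, 2, 2, 3 and 2) reached their highest count in 5-HT replicate 1 and tied with DA in 5-HT replicate 2. Nkx6-1 (1, 1, 1, 2 and 1) and Nkx6-2 (1, 1, 0, 1 and 3) held few peaks in any library.

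**Figure D2:**
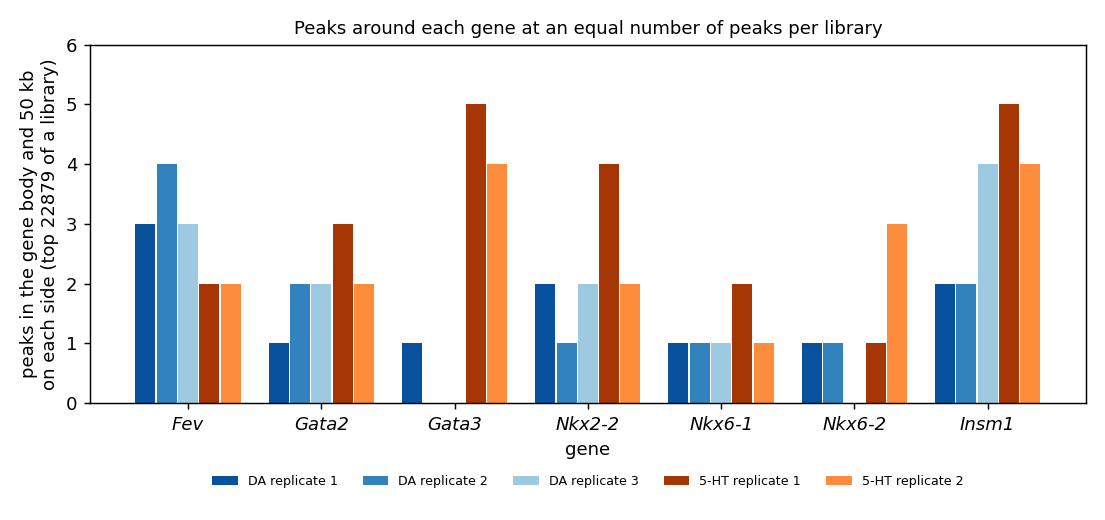
Number of peaks in the gene body and 50 kb on each side of each gene (y axis) among the first 22879 peaks of each library, with 1 bar for each of the 3 DA (blue) and 2 5-HT (brown and orange) libraries. Gata3 has 5 and 4 peaks in 5-HT against 1, 0 and 0 in DA, and Fev 2 and 2 against 3, 4 and 3.

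**Figure D3:**
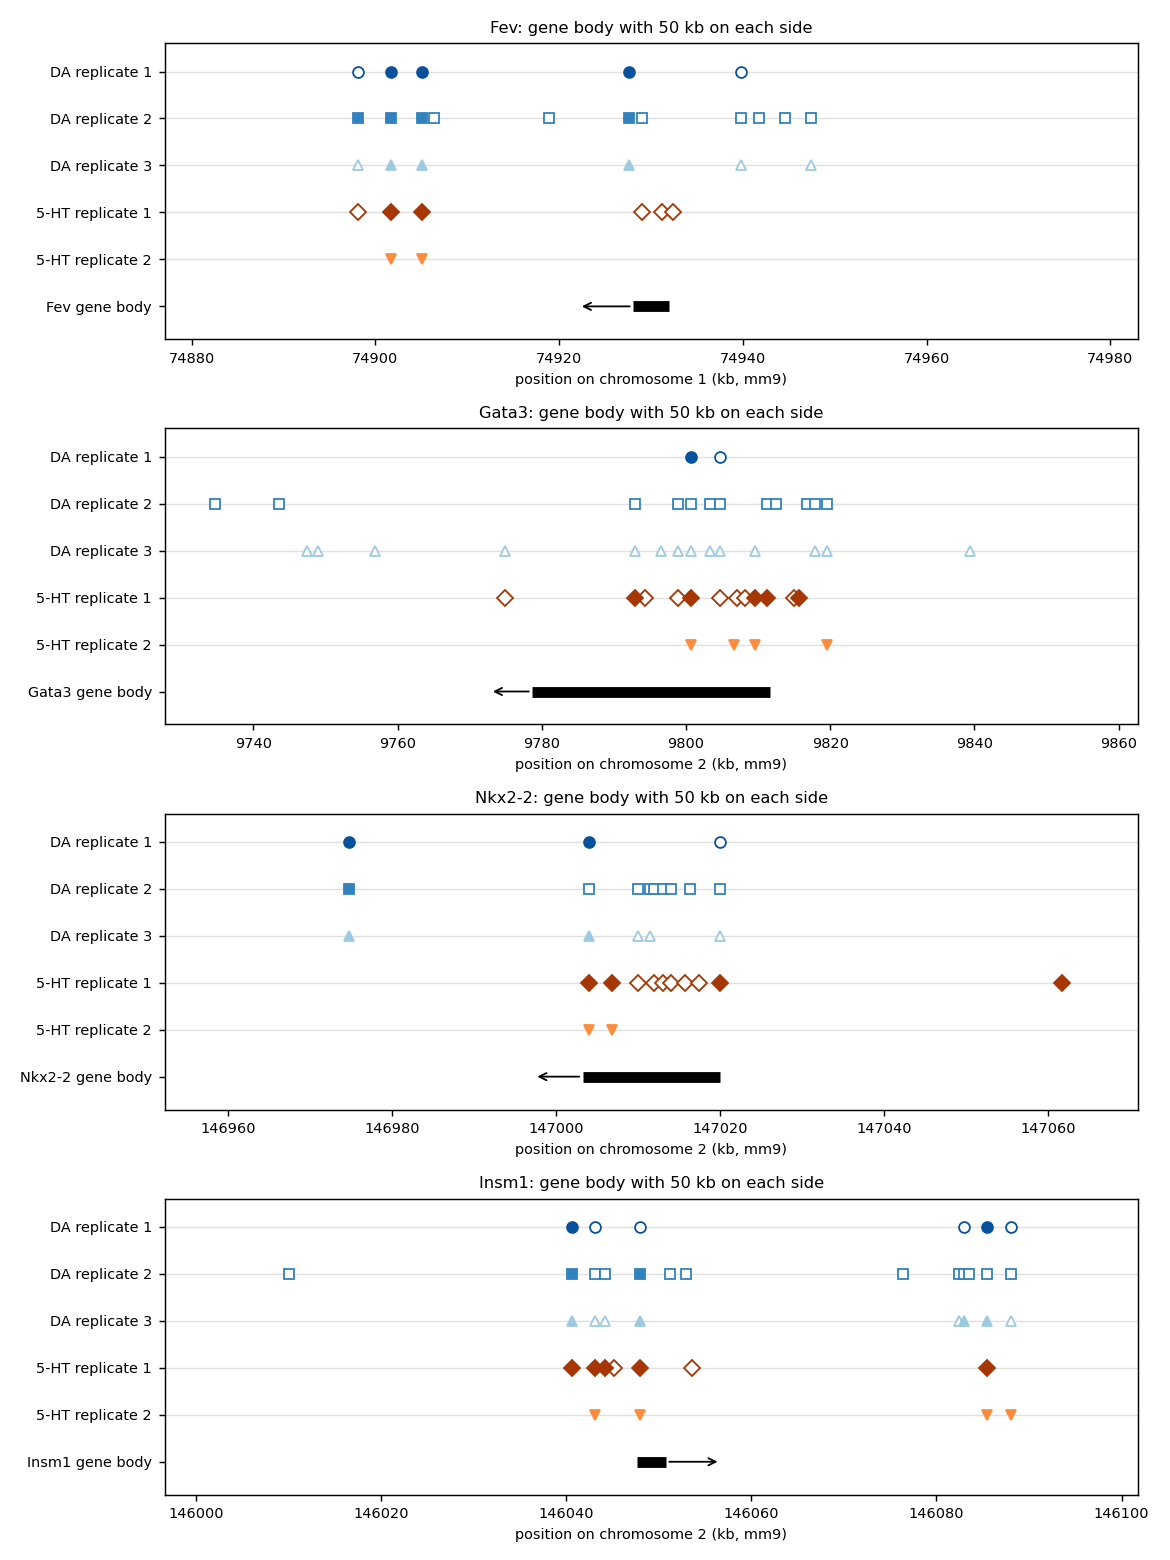
Position of the peaks of each library along the windows of Fev, Gata3, Nkx2-2 and Insm1 (x axis, kb on mm9; symbols at the centre of the region, not to its width), with the gene body as a black bar and its direction as an arrow. Filled symbols are among the first 22879 peaks of the library and open symbols are lower ranked peaks; at Gata3 the filled symbols number 5 and 4 in 5-HT and 1 in DA.

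Base composition of the regions was described next. The 13 promoter regions had a median width of 721 bp, a GC content of 62.1% and an observed to expected CpG ratio of 0.704, against 1007 bp, 58.5% and 0.653 over all promoter regions. The 68 distal regions had medians of 335.5 bp, 52.9% and 0.367, against 308 bp, 48.2% and 0.218 over all regions outside promoters. Distal regions of the serotonergic factors were thus richer in GC and CpG than distal regions at large, as medians of the list.

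Words that resemble the core sites of these factor families were counted on both strands in 300 bp centred on each region. The GATA words AGATAA and TGATAA were found in 3 of 13 promoter regions (23.1%, against 9.21% of all promoter regions) and 12 of 68 distal regions (17.6%, against 25.4% of all others). The ETS word CCGGAA, of the family of Fev, was in 2 of 13 (15.4%, against 18.7%) and 5 of 68 (7.35%, against 3.96%). The NK2 word TNAAGTG was in 0 of 13 (against 7.71%) and 4 of 68 (5.88%, against 15.4%), and the homeodomain word TAATTA, which is its own reverse complement, in 1 of 13 (7.69%, against 2.57%) and 5 of 68 (7.35%, against 10.3%). The INSM1 word CAGGGGG was in 1 of 13 (7.69%, against 8.38%) and 5 of 68 (7.35%, against 5.61%). With 13 promoter regions a single region makes 7.69% of the list, and a word is a match of letters, not a bound site.

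Some of the regions named above are printed as the plus strand of mm9 (NCBIM37), whole or as their central 300 bases. Matches to the 5 kinds of word are in capitals, and not all of these regions were called by rank. The upstream region of Fev open in 5-HT replicate 1 alone is chr1:74932372-74932507, intergenic, with a GATA word on the minus strand. The centre of the strongest Gata3 promoter region is chr2:9800493-9800792, in an intron except for 4 exonic bases. The 5-HT-only regions are represented by chr2:147006661-147006960 in an intron of Nkx2-2, with a GATA word on the plus strand, and chr7:146716595-146716894 in an intron of Inpp5a near Nkx6-2. The region upstream of Insm1 that ranked higher in 5-HT, chr2:146042966-146043265, is intergenic and holds a GATA word on the plus strand. For contrast, the DA-only region next to Fev is given as chr1:74927467-74927766, intergenic. The Gata3, Inpp5a and DA-only sequences hold none of the words, which says only that these letters are absent from the window.
Fev upstream: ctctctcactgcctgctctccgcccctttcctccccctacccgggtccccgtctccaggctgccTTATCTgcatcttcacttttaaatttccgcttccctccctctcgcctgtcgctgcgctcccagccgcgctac
Gata3 promoter: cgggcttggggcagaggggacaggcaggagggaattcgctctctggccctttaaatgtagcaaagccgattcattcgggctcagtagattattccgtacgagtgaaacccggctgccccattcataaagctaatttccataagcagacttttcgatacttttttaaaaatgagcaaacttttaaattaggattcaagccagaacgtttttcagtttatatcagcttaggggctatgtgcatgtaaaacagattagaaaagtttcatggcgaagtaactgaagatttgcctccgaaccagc
Nkx2-2 intron: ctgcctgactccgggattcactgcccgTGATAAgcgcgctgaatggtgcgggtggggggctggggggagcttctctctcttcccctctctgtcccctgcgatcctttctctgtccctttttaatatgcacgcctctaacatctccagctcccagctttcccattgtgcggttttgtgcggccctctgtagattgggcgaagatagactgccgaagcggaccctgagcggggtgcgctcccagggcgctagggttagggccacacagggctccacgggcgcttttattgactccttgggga
Inpp5a intron near Nkx6-2: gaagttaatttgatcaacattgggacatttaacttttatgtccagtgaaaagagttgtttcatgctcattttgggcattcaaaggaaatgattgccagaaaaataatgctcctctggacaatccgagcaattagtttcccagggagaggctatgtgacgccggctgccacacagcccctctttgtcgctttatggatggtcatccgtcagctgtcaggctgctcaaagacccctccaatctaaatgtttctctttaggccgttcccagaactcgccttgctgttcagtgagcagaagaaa
Insm1 upstream: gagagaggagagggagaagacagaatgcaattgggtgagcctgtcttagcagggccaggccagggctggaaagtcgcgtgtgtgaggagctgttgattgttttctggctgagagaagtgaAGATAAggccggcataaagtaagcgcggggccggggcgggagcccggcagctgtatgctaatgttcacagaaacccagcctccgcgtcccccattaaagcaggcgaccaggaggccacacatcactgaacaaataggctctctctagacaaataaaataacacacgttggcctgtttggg
Fev DA-only: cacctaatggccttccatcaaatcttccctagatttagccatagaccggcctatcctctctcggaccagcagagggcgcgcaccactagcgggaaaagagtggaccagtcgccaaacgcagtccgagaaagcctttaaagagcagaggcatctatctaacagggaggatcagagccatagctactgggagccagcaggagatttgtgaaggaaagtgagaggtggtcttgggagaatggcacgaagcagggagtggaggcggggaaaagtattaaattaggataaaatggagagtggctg

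Other genes of the serotonergic pathway were set beside the 7 factors by their best promoter region. Slc6a4 and Maob had a promoter peak in DA only. Both lay past the rank limit in all 3 DA libraries, where absence in the smaller 5-HT libraries does not compare. Maoa, a monoamine oxidase, scored 8.93, 9.97, 9.96, 5.59 and 3.65 and was higher in DA by rank. Gli2, a mediator of Sonic hedgehog (6.69, 7.28, 8.36, 7.03 and 3.99), was higher in 5-HT by rank. So were Gch1, which acts in making the cofactor of Tph2 (6.76, 7.91, 7.62, 5.24 and 3.96), and Htr1b, a serotonin receptor (4.80, 5.00, 4.43, 4.49 and 3.29). Among the 7 factors themselves the best promoter regions gave 3 in all 5 libraries (74% of 14499 protein-coding genes), 2 higher in 5-HT (14.3%) and none higher in DA (11.5%). Lmx1b, a LIM factor that acts with Fev, scored 6.00, 7.62, 6.01, 4.44 and 0. Of 10 dopaminergic genes, 5 were open in all 5 libraries, 3 in DA only (Th, Lmx1a and Aldh1a1), 3 were higher in DA (Th, Pitx3 and Foxa1) and none was higher in 5-HT. Th lay within the rank limit in all 3 DA libraries, whereas Lmx1a and Aldh1a1 lay past it in all 3. For Lmx1a and Aldh1a1, absence in 5-HT thus does not compare. No share over all genes is given for the DA-only class, so its counts are not read as a result.

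Relatives of the 7 factors were counted by their promoters. Of 14 genes of the GATA, NK, INSM and ETS families, 7 had a promoter region, 2 of them in all 5 libraries (Gata6 and Nkx2-9). Gata6 was the 1 gene higher in 5-HT. Of the 14499 protein-coding genes with a promoter region, the best regions gave 74% and 14.3%, shares to be read against the 7 and not the 14. Insm2, the paralogue of Insm1, scored 3.85, 4.45, 4.02, 4.14 and 0. Markers of other cells were counted likewise, beside the same 14.3% higher in 5-HT and 11.5% higher in DA. These shares too are over genes with a promoter region. Such a region was found for 3 of 5 glutamatergic, 4 of 6 visceral motor neuron and 3 of 5 oligodendrocyte precursor markers. It was found for all 4 radial glia markers and 2 of 3 endothelial markers. Of 5 glutamatergic markers, none was higher in 5-HT and Slc17a6 was higher in DA. Among 6 visceral motor neuron markers Isl1 was higher in 5-HT, among 5 oligodendrocyte precursor markers Olig2 and Pdgfra, and among 4 radial glia markers Sox2. None of 3 endothelial markers was called, and none of 3 microglial markers had a promoter region.

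The genes whose best promoter regions were most like those of the factors were sought among 14492 protein-coding genes, by the sum over the 5 libraries of absolute differences in log2 rank. For Fev these were Ncf1, Prrt2 and Tmprss5, at distances of 0.01, 0.02 and 0.02, each with a peak in 5-HT replicate 1 alone. For Gata2 they were Plcd4, Gsx1 and 2310007L24Rik (0.07, 0.07 and 0.09), and for Nkx6-2 Disc1, 4933428G20Rik and Pkdrej (0.06, 0.09 and 0.16). The distances were small where few libraries had a peak. For Nkx2-2 they were Gm15217, Hspa12b and Nmi (0.42, 0.59 and 0.63), for Insm1 C2cd2, Prex2 and Ifnar2 (0.49, 0.54 and 0.65) and for Nkx6-1 Tmem50a, Otx1 and Fezf1 (0.67, 1.01 and 1.01). The pattern of Gata3 had the most distant neighbours, Ankrd13a and Git2, which share a region (2.16), and Foxo1 (2.82).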

How the data were processed

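ATAC-seq of 3 DA and 2 5-HT libraries was used; RNA-seq was not analysed here. The tools of the authors were Trimmomatic and FastQC for quality control, Bowtie2 for mapping on mm9, Picard against duplicates, MACS2 (callpeak) for the peaks, BEDOPS to join those within 100 bp and HOMER for annotation; versions and the peak threshold are not given in the sources used here. The deposited score of each region was ranked within its library (ties at their mean rank). In 1 line a misspelled chromosome name was read as chromosome Y. Regions were joined by an overlap of at least 1 bp to the GENCODE vM1 annotation of NCBIM37 (mm9), and sequences were read from the genome of that build. Ranks past 22879 were set to 22880 for the calls and differences by rank, but not for the distances between genes. Two-sided exact permutation tests compared 3 with 2 libraries (smallest p 0.1). Alternatives were other windows, promoter definitions, peak numbers and rank limits, and leaving out each library. The members and lists were chosen with earlier results of these data known. Named were all 7 genes with their promoter regions, distal regions open in 5-HT only or higher in 5-HT, up to 3 DA-only regions per gene, the best ranked distal region per gene and group, and the 3 genes most alike; a Gata2 intron region and those at neighbours' promoters were named after their values were seen. Class and rank rules were tested on simulated data. Python 3.11.15, NumPy 2.4.6, pandas 2.3.3, SciPy 1.17.1 and matplotlib 3.10.9 were used.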

Additional observations from a re-analysis of the deposited data

How the results depend on the processing

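Counts are given for regions of the 7 genes, and the cause of each change was not tested. The number of distal regions was 40 with windows of 10 kb and 125 with 100 kb, against 68, so counts also follow the window. With 10 kb, 3, 2 and 1 distal regions were open in all libraries, in DA only and in 5-HT only, and 1 was higher in DA; with 100 kb, 12 were open in all, 14 in DA only and 7 were higher in 5-HT. Over all regions outside promoters the shares were 5.55%, 14.6% and 0.434%, with 2.5% higher in 5-HT and 3.35% in DA. With promoters from 2 kb upstream to 500 bp downstream, 3 distal regions were DA only. With regions placed by their centre, 1 promoter and 8 distal regions were open in all libraries, and no share over all regions is given for this definition. At an equal number of peaks, 0 promoter regions were open in all libraries (44.2% of all promoter regions) and 1 in 5-HT only (3.55%). Of the distal regions, 2 were then open in all, 2 in DA only and 3 in 5-HT only, and the DA mean over the windows was 11.3. At 10000 peaks per library, no promoter or distal region was open in all (0 and 0), 1 distal region was DA only and 0 were 5-HT only. No share over all regions is given at that number of peaks. Ranks limited to 10000 left 0 promoter and 0 distal regions higher in 5-HT (4.88% and 0.573% of all regions of each kind). They left 1 distal region higher in DA (0.762%). With shares this low, these counts are not read as a result about the 7 genes. Without a limit, absent regions rank better in smaller libraries. In that setting 12 promoter and 53 distal regions counted as higher in 5-HT (40.5% and 71.8% of all regions of each kind). Both 5-HT libraries had a peak at only 3 and 4 of them. Leaving out each library in turn, promoter regions numbered 0 to 1 for DA only, 0 to 2 for 5-HT only and 3 to 11 for higher in 5-HT; distal regions numbered 5 to 10 for all libraries, 5 to 10 for DA only, 2 to 13 for 5-HT only, 3 to 25 for higher in 5-HT and 3 to 6 for higher in DA. The highest counts came without 5-HT replicate 1 or 2. Leaving out 5-HT replicate 2 also raised the rank limit to 38772; with the limit kept at 22879, an alternative chosen after seeing the data, 6 promoter and 10 distal regions were higher in 5-HT, and 0 and 3 higher in DA. Means over the windows without each library, an alternative chosen after seeing the data, ranged from 36.0 to 57.0 in DA and from 18.0 to 48.0 in 5-HT, and at an equal number of peaks from 11.0 to 11.5 and from 18.0 to 22.0. The replicate block, which compared libraries 1 and 2 of each group within their number, gave 1 promoter region in 5-HT only with the other counts at their main values; same-numbered libraries shared only a number (r = 0.01 and 0.04 over 131942 regions). No difference in mean promoter rank turned to the opposite sign, but those of Gata2 and Nkx2-2 were 0.0 without 5-HT replicate 1. Without 5-HT replicate 2 and with the raised limit, those of Fev, Nkx6-2, Gata2, Nkx2-2 and Nkx6-1 were -11679.5, -11048.0, -16155.0, -25747.0 and -10960.2; with the limit kept they were 0.0, 0.0, -262.0, -9854.0 and -1898.3, and that of Gata3 was -6376.0. With scores summed over promoter regions, that of Fev was -9227.0. Merging nearby regions and placing them in windows by their centre gave the same counts. Depth is unknown and limits what absence of a peak in the smaller 5-HT libraries means.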
